A study of Mus musculus with 2 samples.

Results

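The genes described here are 10 mouse genes for splicing regulators and nuclear speckle proteins, namely Son, Srrm2, Celf1, Celf2, Rbm20, Rbm24, Rbfox1, Rbfox2, Mbnl1 and Mbnl2. They were examined in a list of RNA positions from a pulldown of the FLAG-tagged enzyme NAT10 from mouse hearts. A line of the list was taken as belonging to a member when the list placed the position in a gene of that symbol, and each position was counted once. Of the 10 genes, 6 had at least 1 position and 4 had none, out of 990 gene identifiers in the whole list.

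NAT10 acetylates cytidines in RNA. Wild-type mice had been injected under the skin at day 1 after birth with AAV9-cTnT-FLAG-NAT10, a virus that carries FLAG-tagged NAT10 behind the cTnT promoter of heart muscle cells, and hearts were collected at day 20 after injection. Some 60 mg of heart tissue was homogenised, 10% of the lysate was kept as the Input library, and the remainder went through anti-FLAG beads to give the RIP library, with mRNA purified before sequencing. The question the study set was which mRNAs associate with NAT10 in the heart.

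Both libraries, 1 Input and 1 RIP, came from hearts that carried the construct, and a pulldown from hearts without it was not analysed here. RNA retained by the beads therefore cannot be told apart from RNA retained by NAT10. How many hearts entered a library is not given in the sources used here. With 1 library per group there was no replicate spread and no test, so every value describes these libraries. In a whole heart, fewer cells of a type and less RNA per cell cannot be told apart.

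The list gave summits, the single bases that mark a top within a peak called in RIP over Input, and a score for each. The score is the authors' own value, a -log10 of either p or q, and it can rise with the abundance of an RNA as well as with its share in the pulldown. The list held 2020 summits in 1600 peaks, with a median score of 12.5 and quartiles of 5.83 and 28.3. It holds no read counts, so sequencing depth is unknown. As a check of the tissue, 4 of 10 cardiomyocyte markers had a summit, with the highest score of 1524 in Myh6, while Tnnt2, Actc1, Myl2, Myl3, Myl7 and Pln were among those without one. Of 21 markers of endothelial, stromal, white blood and nerve cells, 6 had a summit, with the highest score of 24.9 in Col1a1, and 0 of 4 leukocyte and 0 of 3 neuronal markers had one. Several of the splicing genes are expressed in these other cells too, and the part of such cells in the values below was not tested.

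Alternative splicing joins different exons of 1 gene into different mRNAs, and heart muscle changes its splicing sharply in the weeks after birth. SON and SRRM2 are large proteins rich in arginine and serine that build nuclear speckles, the bodies that store splicing factors. CELF, MBNL and RBFOX proteins bind short motifs near exons, and CELF and MBNL proteins oppose each other on many exons as the heart matures. RBM20 represses exons of titin and of calcium-handling genes, and RBM24 promotes the inclusion of muscle exons.

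Coding sequence of an exon that held a summit is shown for the 3 members whose proteins have arginine- and serine-rich domains. For Rbm20 this is exon 9, whose summit scored 2.06. Rbm20 exons 2 and 11, with highest scores of 7.20 and 7.13, are not shown. Each line gives the 20 codons with most arginine and serine codons in that exon of the canonical transcript (GENCODE, on GRCm39), 5′ to 3′ on the coding strand, with arginine and serine codons in capitals.

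Son exon 3: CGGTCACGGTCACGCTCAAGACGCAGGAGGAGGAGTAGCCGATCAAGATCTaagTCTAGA
Srrm2 exon 11: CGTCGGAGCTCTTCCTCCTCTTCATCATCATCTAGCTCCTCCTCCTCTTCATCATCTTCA
Rbm20 exon 9: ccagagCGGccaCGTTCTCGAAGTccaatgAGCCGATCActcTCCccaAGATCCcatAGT

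The Son stretch lies at bases 5415 to 5474 of the exon, the Srrm2 stretch at bases 6424 to 6483 and the Rbm20 stretch at bases 8 to 67. Of their 20 codons, 19, 20 and 12 encode arginine or serine. A stretch at least as rich was found in 0.12% of 21593 canonical coding sequences for Son, 0.0648% for Srrm2 and 3.51% for Rbm20. Over the whole exon, 22.4% of Son codons, 41.1% of Srrm2 codons and 23.2% of Rbm20 codons encoded arginine or serine. In Srrm2 the stretch is nearly all serine codons, whereas in Son and Rbm20 arginine and serine codons are mixed. In human, the arginine- and serine-rich domain of RBM20 is a site of dilated cardiomyopathy mutations. The exact place of the summits relative to these stretches was not analysed here. The summit positions are those of the GRCm38 build, and no genome of that build was used. In Son, the weaker summit placed in exon 3 lay 4171 bases downstream of the strongest one, in an exon of 5970 bases. The strongest Son summit thus lay well upstream of the stretch shown. The spacing of the exon and intron summits of Son, Srrm2 and Rbm20 was compatible with the exon numbers of the canonical transcripts.

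Summits were found in 6 of the 10 members (60.0%, exact 95% interval 26.2 to 87.8). Over all 21770 annotated protein-coding genes the share was 4.22%. Among the 13835 coding genes with a canonical transcript of at least 2218 bases, the length of the shortest member, it was 5.6%. The members had 14 summits with scores from 2.06 to 130.0 and a median of 7.45, which is below the median of 12.5 over the whole list. Only 3 of the 14 (21.4%, 4.66 to 50.8) scored at or above that median, 1 each in Son, Celf2 and Rbm20, and 5 (35.7%, 12.8 to 64.9) scored below the lower quartile. Each of the 14 was the only summit of its peak and was placed in exactly 1 gene, and no other RefSeq gene covered it.

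Counted by gene, 3 of the 10 members reached the median score with their strongest summit, against 2.29% of protein-coding genes, and 1 of the 10 reached the upper quartile, against 1.04%. The strongest score per member with a summit ranged from 7.75 to 130.0 with a median of 16.7, beside a median of 14.2 and quartiles of 6.97 and 28.2 over the 919 coding genes with a summit. The share of members with any summit was thus above that of all coding genes, which include genes silent in the heart. Because the members were chosen with earlier results of these data known, their share is no independent evidence. The strongest scores of the members other than Son, from 7.75 to 28.0, lay between the quartiles over all genes with a summit.

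**Figure D1:**
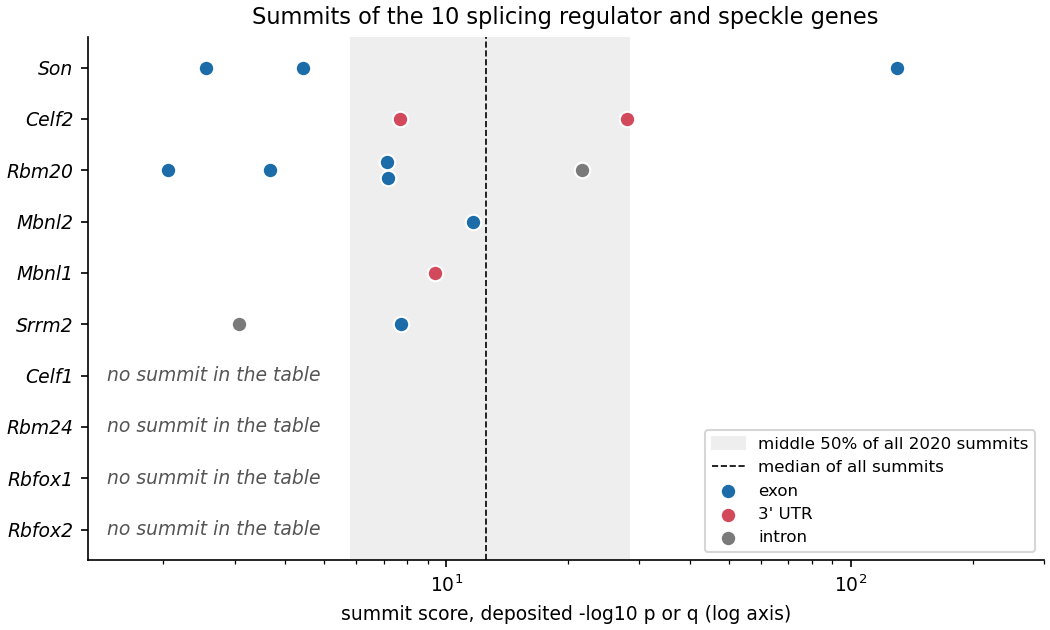
Score of every summit in the 10 genes on a log axis, 1 point per summit, coloured by region. The grey band spans the quartiles of all summits (5.83 to 28.3) and the dashed line is their median (12.5). Son has the only point right of the band, at 130.0, and Celf1, Rbm24, Rbfox1 and Rbfox2 have no point.

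Son (ENSMUSG00000022961) encodes a scaffold of the nuclear speckle that is needed for the splicing of many weakly recognised introns. It had the strongest summit of the members and ranked 38 among the 919 coding genes with a summit. That summit scored 130.0 and lay at position 91654839 of chromosome 16 in exon 3. It ranked 58 of 2020 in the whole list and 26 among the 1022 exon summits of coding genes. A second exon 3 summit at 91659010 scored 2.55, and a summit in exon 2 at 91651728 scored 4.41. The strong summit thus stood between a pair of weak ones, 3111 bases downstream of the first and 4171 bases upstream of the last, and without it the strongest score of the gene would be 4.41.

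Son exon 3 is a single exon of 5970 bases and makes up 68.1% of the canonical transcript of 8764 bases. Of all 30-base stretches in that transcript, 3.69% occurred more than once, while no stretch of the read length of 150 bases did. The genes next to Son in strongest score were Cfl1 at 131.5 and Myom1 at 131.4 above it, and Aph1a at 129.6 and Cacna2d3 at 127 below it. These encode the actin-severing protein cofilin, an M-band protein of the sarcomere, a subunit of gamma-secretase and a calcium channel subunit, so the neighbours in score are not splicing genes.

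Srrm2 (ENSMUSG00000039218) encodes the other large speckle scaffold, which is also part of the spliceosome. It had 2 weak summits on chromosome 17. The summit in exon 11, at 23816064, scored 7.75, and that in intron 3, at 23808224, scored 3.08. Exon 11 has 6569 bases and forms 74.0% of the canonical transcript of 8876 bases. Son and Srrm2 thus resemble each other in transcript length and in having 1 giant inner exon with a summit, but their strongest scores were 130.0 and 7.75. Srrm2 ranked 651 of 919, far below Son.

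Rbm20 (ENSMUSG00000043639), the heart and skeletal muscle repressor of titin exons, had 5 summits on chromosome 19, the most of any member. Only 50 of the 919 coding genes with a summit (5.44%) had 5 or more. Its strongest summit scored 21.7 at 53701155 and was the only one in an intron, intron 1. The other 4 lay in exons. Exon 2 held summits of 3.67 at 53813662 and 7.20 at 53814131, which are 469 bases apart. Exon 9 held 1 of 2.06 at 53843555, and exon 11 held 1 of 7.13 at 53851311. The exon 9 summit was the weakest of all 14.

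The intron 1 summit of Rbm20 ranked 30 of the 110 intron summits in coding genes, whose median score was 7.83. It lay 40.2 kb from the RefSeq start of the gene and 112507 bases before the next Rbm20 summit. Without it, the strongest score of Rbm20 would be 7.20, and the median of the strongest scores over the 6 members would be 10.5 when exon and UTR summits alone are counted. Per kb of canonical transcript, Rbm20 had 0.603 exon and UTR summits, the highest value of the members. The median over coding genes with a summit was 0.272, with quartiles of 0.156 and 0.468.

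**Figure D2:**
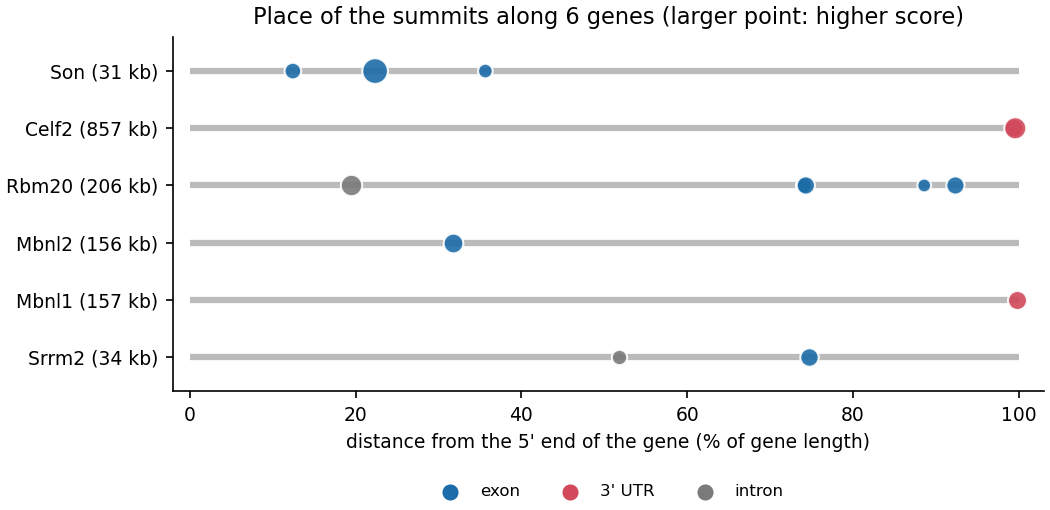
Place of each summit along the gene as a percentage of gene length from its 5′ end (RefSeq bounds), for the 6 members with a summit. Colour gives the region and point size the score. The 2 Celf2 summits, 1252 bases apart in a gene of 856.6 kb, fall on 1 point at the 3′ end, and those of Son lie in the first 35.7% of the gene.

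Celf2 (ENSMUSG00000002107) encodes a CELF protein that binds GU-rich RNA and whose activity declines as heart muscle matures. It had 2 summits on chromosome 2, both in the 3′ UTR. The stronger scored 28.0 at 6543446 and lay just under the upper quartile of 28.3. The other scored 7.70 at 6544698, 1252 bases upstream on the minus strand of the gene. In gene coordinates they lay 3752 and 5004 bases before the 3′ end, in a canonical 3′ UTR of 6026 bases. The stronger one ranked 179 of 736 among 3′ UTR summits in coding genes, whose median score was 13.2.

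Celf1 (ENSMUSG00000005506), the paralog best known for its excess in myotonic dystrophy, had no summit, and no summit of any kind lay within its RefSeq bounds. The nearest was 99775 bases away, in Mybpc3. The canonical transcripts of both CELF genes are much alike in build, with 8006 bases and a 3′ UTR of 6132 bases for Celf1 against 8182 and 6026 for Celf2. Their coding sequences were identical at 66.7% of aligned positions, and the longest identical run between the transcripts was 23 bases, which is shorter than a read of 150 bases.

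Mbnl1 (ENSMUSG00000027763) and Mbnl2 (ENSMUSG00000022139) encode muscleblind-like proteins, which promote the adult splicing pattern and are sequestered by repeat RNA in myotonic dystrophy. Each had 1 summit of middling score, but in a different region. Mbnl1 scored 9.38 in its 3′ UTR, at 60629352 on chromosome 3, which is 398 bases before the 3′ end of the gene. Mbnl2 scored 11.7 in exon 2, at 120325193 on chromosome 14, 49.5 kb from the gene start. In the canonical transcript of Mbnl2, exon 2 has 619 bases and is the longest of 8 exons. The identical runs between both transcripts reached 26 bases at most, and 61.6% of aligned coding positions were identical.

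Rbfox1 (ENSMUSG00000008658), Rbfox2 (ENSMUSG00000033565) and Rbm24 (ENSMUSG00000038132) had no summit. RBFOX proteins bind a short motif beside exons in heart, muscle and brain, and RBM24 is a muscle regulator needed to form the sarcomere. Rbfox1 is the longest member gene, at 1528 kb, yet no summit lay within it, and the nearest outside was 820221 bases away in Ubn1. For Rbfox2 the nearest was 435074 bases away in Cyhr1, and for Rbm24 318236 bases away in Kif13a. The list names only summits past a threshold, so these genes may be expressed and still have no line in it. Since Input levels were not used here, a gene with little RNA in the heart and a gene with much RNA but no association look the same.

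By region, 9 of the 14 summits lay in exons (64.3%, 35.1 to 87.2), 3 in 3′ UTRs (21.4%, 4.66 to 50.8), 2 in introns (14.3%, 1.78 to 42.8) and 0 in 5′ UTRs. Over the 1904 summits in protein-coding genes, 53.7% lay in exons, 38.7% in 3′ UTRs, 5.78% in introns and 1.79% in 5′ UTRs. Without titin, Ttn, those exon and 3′ UTR shares were 47.6% and 44.0%. Each interval of the members contained the share of the whole list. The intervals treat the 14 summits as independent although several share a gene, so a difference in region was not tested. Among the 4 members with more than 1 summit, those of Son all lay in exons and those of Celf2 in the 3′ UTR, while Rbm20 had 4 in exons and 1 in an intron and Srrm2 had 1 in each.

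The transcripts of the 6 members with a summit had 2284 to 8876 bases with a median of 7408.5, and those of the 4 without had 2218 to 8006 with a median of 3905. These ranges overlap, since Mbnl2 had a summit with 2284 bases and Celf1 had none with 8006. Over all coding genes the median was 2927 bases, and over those with a summit 4793.5. Long inner exons were also found mainly in the first set. The longest inner exon had 197 to 6569 bases in members with a summit and 124 to 240 bases in members without, with Celf2 at 197 in the overlap. How reads that span a join between exons were aligned was not examined, and any effect on where summits were called was not tested. Canonical transcripts were used throughout, and other transcripts of Mbnl2 and Rbfox2 may differ in their 3′ UTR.

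**Figure D3:**
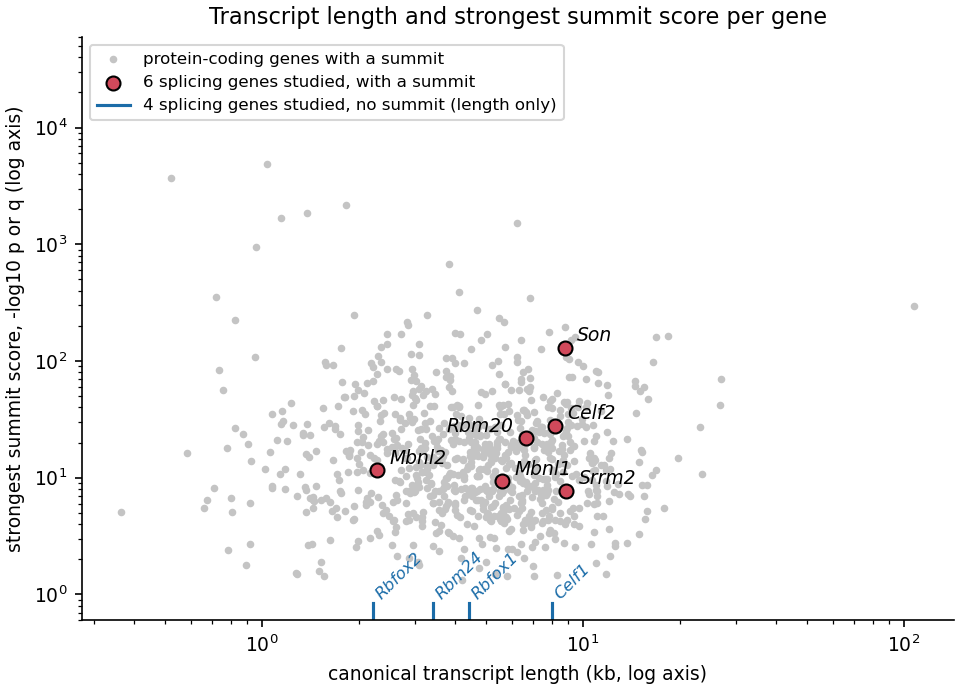
Canonical transcript length against the strongest summit score, both on log axes, for all coding genes with a summit (grey) and for the 6 members with one (red). Blue ticks at the bottom mark the lengths of the 4 members without a summit. Srrm2 and Son have nearly equal lengths, 8876 and 8764 bases, and strongest scores of 7.75 and 130.0.

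Cytidine, the base that NAT10 acetylates, made up 24.6% to 29.9% of the coding sequence in members with a summit and 25.1% to 34.3% in members without. The lowest share was that of Son and the highest that of Rbm24, which had no summit. The median over all coding genes was 25.6%, with quartiles of 22.5% and 28.8%. Among coding genes with a summit it was 26.7%. The share of Son, the member with the strongest summit, was below the median over all coding genes and above the lower quartile. The part of cytidine content in the summits was not tested. All summits of Celf2 and Mbnl1 lay in 3′ UTRs. Cytidine made up 15.8% to 22.0% of the 3′ UTR in members with a summit and 11.1% to 21.4% in members without. The median 3′ UTR share over all coding genes was 21.5%.

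The other genes of the splicing machinery were taken from 6 lists of 163 genes in all. Of these, 13 had a summit (7.98%, 4.31 to 13.3), beside the background of 4.22%, which makes no allowance for expression in the heart. The median of their strongest scores was 19.5. They held 18 summits, 11 in exons, 5 in 3′ UTRs and 2 in introns.

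None of the 13 SR proteins, the classical serine- and arginine-rich activators of splicing, had a summit (interval 0 to 24.7%). Nor did any of the 9 kinases that phosphorylate them (0 to 33.6%). The share of all protein-coding genes, 4.22%, lay inside the interval of each single list, here and below. Of 26 hnRNP proteins 3 had one (11.5%, 2.45 to 30.2), namely Hnrnpa0 at 81.7 in its last exon, Hnrnpm at 35.0 in its 3′ UTR and Hnrnpul2 at 4.26 in exon 1. Of 24 other speckle and paraspeckle genes 3 had one (12.5%, 2.66 to 32.4). These were Luc7l3 at 27.4 in exon 8, Scaf1 at 23.2 in its 3′ UTR and Sart1 at 19.5 in intron 18.

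Of 43 other splicing regulators, including paralogs of the members, 4 had a summit (9.30%, 2.59 to 22.1). They included Rbm25 at 19.6, Elavl1 at 17.7 and Rbm39 at 4.37, and the paralogs Celf3 to Celf6, Rbfox3 and Mbnl3 were among those without. Of 48 core spliceosome genes 3 had one (6.25%, 1.31 to 17.2). Sf3a2, a subunit of the U2 particle, scored 85.9 in its last exon, Sf3b2 scored 8.16 in its 3′ UTR, and Prpf8, the central scaffold of the spliceosome, scored 6.97 in exon 16. No gene of these lists reached the 130.0 of Son.

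**Figure D4:**
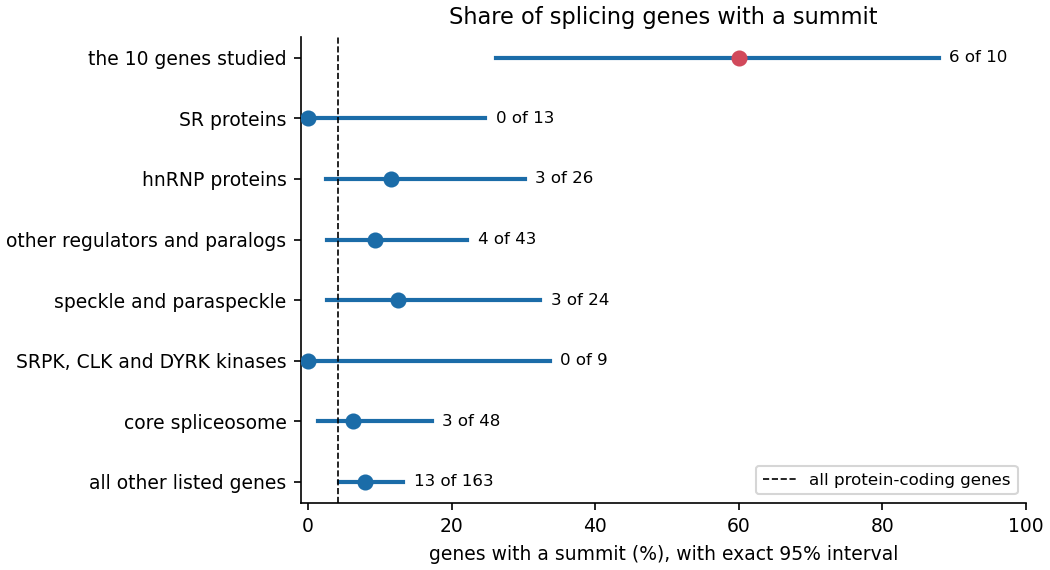
Share of genes with a summit in the 10 genes studied (red) and in 6 lists of other splicing genes and their sum (blue), with exact 95% intervals. The dashed line is the share of all protein-coding genes, 4.22%. The 10 genes stand at 60.0%, the summed lists at 7.98%, and SR proteins and their kinases at 0. Genes and lists were chosen with earlier results of these data known.

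The gene ontology terms that the authors' table carries were compared with the label of the set. The term RNA splicing was attached to 18 genes with a summit, among them Son, Srrm2, Rbm20, Mbnl1 and Mbnl2, and the term mRNA processing to 20, among them all 6 members with a summit. Nuclear speck was attached to 32 genes, of which Son and Srrm2 were members. Son had the highest score under each of these 3 terms. For regulation of RNA splicing, attached to 5 genes, Ahnak scored above Son.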

How the data were processed

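RNA immunoprecipitation was sequenced in 1 Input and 1 RIP library of mouse heart. Reads were filtered with fastp and aligned with BWA 0.7.12, per the series' design text, and the submitters' processing notes also name MACS2 2.1.0 and HOMER. For each summit, the deposited table gives the authors' -log10 p-value or q-value; its header was lost to a spreadsheet error. The lowest score was 1.32, against 1.30 for 0.05.

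The notes name GRCm39, but 98.9% of 1914 gene lines, and 14 of 14 member lines, lay inside their RefSeq GRCm38 gene, so positions are given as GRCm38. GENCODE release 39 supplied gene types, transcript lengths and sequences only. In all, 10 members and 163 other genes were matched by symbol. Members and lists were chosen with earlier results of these data known, so their shares are no independent evidence. All members were named, and up to 4 genes of each list by score, and the 2 genes on either side of the strongest member in score; 1 gene that this rule names is not reported here. Intervals are exact (Clopper-Pearson, SciPy 1.17.1) at 95% and cover counting error only. Depth is unknown. Counting was tested on simulated tables. Python 3.11.15, pandas 2.3.3 and Biopython 1.88 were used. Alternatives changed the score threshold, summit merging, gene assignment, regions and the members counted.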

Additional observations from a re-analysis of the deposited data

How the results depend on the processing

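Counts depended on the score threshold. At or above the median score, 3 members with 3 summits remained, their median strongest score was 28.0, and 8 of the other splicing genes had one. At the upper quartile, 1 member with 1 summit remained, the 3′ UTR share was 0, the median strongest score was 130.0, and 3 other splicing genes had a summit. With genes assigned by the closest transcription start, 4 members instead of 6 had a summit, with 6 summits in all, and 8 other splicing genes had one. Celf2 went from 2 summits to 0 and Mbnl1 from 1 to 0. This start can belong to a neighbouring gene, and no region could be given. Without Rbm20, 9 summits were left. The median strongest score was 10.5 with introns left out and 8.26 when each gene was given its median score. Merging summits within 200 bases, keeping summits in exactly 1 gene and RefSeq bounds changed none of the 5 summary results. No paired analysis was possible because each group had 1 library.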

Other observations

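Genes with a giant inner exon were looked at after the values of Son and Srrm2 had been seen. Of 27 coding genes whose canonical transcript has an inner exon of at least 5970 bases, the length in Son, 9 had a summit. This is 33.3% (16.5 to 54.0), beside 4.22% of all coding genes, a background not matched for transcript length. The median transcript had 4793.5 bases in coding genes with a summit and 2863 in those without. The part of transcript length, and that of how reads across joins between exons were aligned, was not tested. Son and Srrm2 are among the 9 by the choice of this length, and without them 7 of 25 had one (28.0%, 12.1 to 49.4). Besides Son and Srrm2 these were Ttn with 235 summits, the muscle scaffolds Cmya5 with 25 and Xirp2 with 6, Ankrd11 with 3 and a strongest score of 72.3, Spen with 2 and a strongest score of 16.4, and Ank2 and Crybg3 with 1 each. Ankrd11 and Spen encode nuclear regulators of transcription. The genes without a summit included Muc16, Mki67, Apob and Bsn, and also Map1a, Map1b, Unc13b, Prune2, Stard9 and Eppk1. Expression in the heart was not measured here, and its part in this split was not tested.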
